A study of Mus musculus with 19 samples.

Results

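Cytosolic ribosomal proteins are the protein parts of the ribosomes that translate mRNA outside the mitochondria, and their genes were followed here in kidneys of mice with and without obstruction. The genes were chosen by symbol, taking the rows named Rpl, Rps, Rplp or Rpsa in mouse nomenclature together with their expressed paralogues, provided that they held at least 190 counts over the 19 libraries. Of 55536 gene rows, 84 symbols matched and 79 genes passed the count limit. They comprised 31 genes of the small and 48 genes of the large ribosomal subunit, and all 79 had enough counts for testing. Just inside the limit were Rpl3l with 340 counts and Rps10 with 540 counts over the 19 libraries. Just outside it was Rpl24 with 76 counts, and the other rows left out were Rpl32l with 29 counts, Rpl39l with 9 counts, Rpl6l with 8 counts and Rpl10l with 0 counts. The median gene that passed had 43169 counts. Rpl24 shared 46.99% of its exon length with the same-strand gene Gm28037, and Rps10 shared 20.55% with RPS10-NUDT3; whether the overlap lowered their counts was not tested.

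The libraries came from 8 obstructed kidneys of zalfermin-treated mice, 7 obstructed kidneys of vehicle-treated mice and 4 healthy kidneys. Zalfermin is an analogue of the metabolic hormone FGF21 made to act for a long time, and obstruction of the ureter is a surgical procedure that leaves the kidney fibrotic. The series design writes UUO for the obstructed groups, whereas the labels of those 15 libraries read MASH. The labels name the drug by a code, taken here as zalfermin, and call the healthy mice untreated where the design calls them vehicle. Strain, sex, age, dose, time after surgery and the pairing of libraries with single mice are not stated in the sources used here, so each p-value below measures the spread between libraries.

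A ribosome has a small subunit, which reads the mRNA, and a large subunit, which joins amino acids and passes the growing chain through an exit tunnel. Both subunits are assembled in the nucleolus from ribosomal RNA and one copy of nearly every ribosomal protein, so cells usually make these proteins in balance. The mRNAs typically begin with a run of pyrimidines, the terminal oligopyrimidine or TOP motif, through which mTOR signalling and the binding protein Larp1 govern their translation and stability. A few genes have paralogues whose proteins can take the same place, such as Rpl3l, the striated-muscle counterpart of Rpl3.

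Libraries held 12209122 to 14844103 counts. Levels are given in CPM, a gene's share of the library total after scaling by TMM, which corrects for differences in RNA composition, and folds are log2 fold changes. The marker sums in this paragraph are in CPM of unscaled totals. Vehicle replicate 6 stood apart: counts were found for 19788 genes, where the remaining vehicle libraries had 21374 to 22216, and mitochondrially encoded genes held 1.10% of its counts. Of the kidney markers 11 of 11, such as Umod and Lrp2, were detected and were lower in vehicle-treated obstructed than in healthy kidneys. Markers of dividing cells (8 of 8), fibroblasts (6 of 6) and leukocytes (12 of 13 tested, all but Cd79a) were higher there. The summed leukocyte markers ranged from 379 to 558 CPM in zalfermin, 412 to 579 in vehicle and 91.6 to 116 in healthy libraries. The summed markers of dividing cells ranged from 102 to 202 in zalfermin, 123 to 191 in vehicle and 7.87 to 15.99 in healthy libraries. Those of fibroblasts ranged from 1658 to 2707 in zalfermin, 2697 to 5295 in vehicle and 131 to 236 in healthy libraries. The summed kidney markers ranged from 6809 to 9083 CPM in zalfermin, 6385 to 10856 in vehicle and 16915 to 18204 in healthy libraries. Among genes of other tissues, Ins2 had 0 counts and Ckm 5 counts over the 19 libraries. In whole kidney a change in the number of cells of a type and a change in RNA per cell cannot be told apart, and the part of the shifting cell makeup in the results below was not tested.

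The 79 genes together took 1.64% ± 0.121 of all counts in zalfermin, 1.82% ± 0.324 in vehicle and 1.10% ± 0.110 in healthy kidneys (SD, n = 8, 7 and 4). Single libraries ranged from 1.44% to 1.79% in zalfermin kidneys and from 1.55% to 2.30% in vehicle kidneys, and the healthy libraries held 0.995%, 1.25%, 1.10% and 1.05%. Neither obstructed group overlapped with the healthy group, while the obstructed groups overlapped with each other. Mitochondrially encoded genes made up a larger part of the healthy libraries. When those genes were left out of the total, the shares were 1.70% ± 0.120 in zalfermin, 1.88% ± 0.318 in vehicle and 1.22% ± 0.113 in healthy kidneys. With TMM scaling the groups lay closer together, since the healthy libraries had TMM factors of 0.751 to 0.843 and the obstructed libraries 1.02 to 1.11. The summed levels were then 15655 ± 1020 CPM in zalfermin, 16978 ± 3151 CPM in vehicle and 13781 ± 1643 CPM in healthy kidneys, and all 3 groups overlapped.

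The summed counts of the small subunit divided by those of the large subunit gave 0.684 ± 0.0075 in zalfermin, 0.689 ± 0.0052 in vehicle and 0.664 ± 0.0049 in healthy kidneys. The lowest vehicle library, at 0.681, lay above the highest healthy library, at 0.671, and the lowest zalfermin library, at 0.674, did so as well. Because this ratio is formed within a library, it does not depend on how libraries are scaled.

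**Figure D1:**
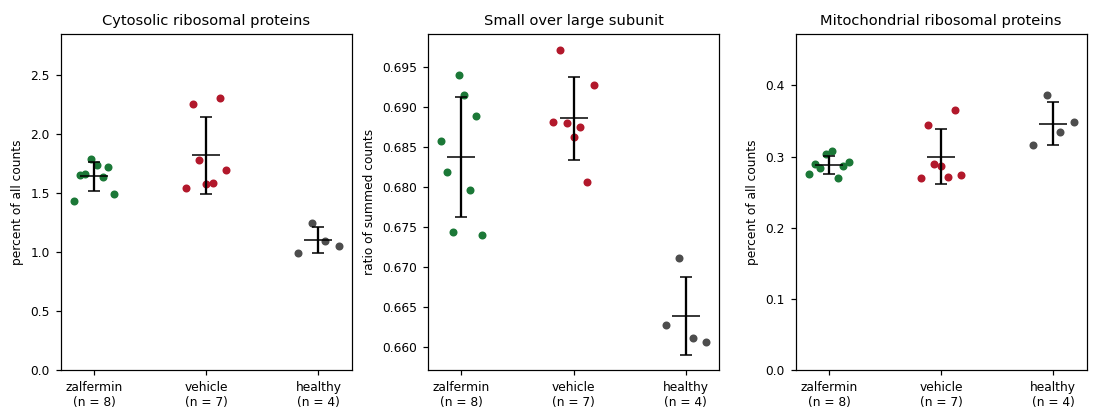
Share of all counts held by the 79 cytosolic ribosomal protein genes (left), ratio of summed small-subunit to large-subunit counts (middle, axis not starting at 0) and share held by mitochondrial ribosomal protein genes (right). Points are libraries, and bars are the mean ± SD of 8 zalfermin, 7 vehicle and 4 healthy kidneys; the cytosolic share averaged 1.64%, 1.82% and 1.10%.

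Levels differed widely among the genes. They are given in CPM of unscaled totals per kilobase of each gene's longest principal transcript, which ran from 345 to 5179 bases. A long annotated transcript lowers the value, so ranks between genes depend on this choice. The median gene stood at 204 in zalfermin, 227 in vehicle and 140 in healthy kidneys. Rplp1, one of the acidic stalk proteins that recruit elongation factors, was highest in each group, at 1050 ± 87.6 in zalfermin, 1247 ± 399 in vehicle and 683 ± 77.8 in healthy kidneys on this scale (SD, n = 8, 7 and 4). Rps15 and Rps27, both of the small subunit, followed at 599 and 565 in zalfermin, 703 and 686 in vehicle and 446 and 382 in healthy kidneys. Rps12 ranked in position 4 in zalfermin and vehicle kidneys and in position 13 in healthy kidneys. At the other end, Rpl3l and Rps10 held few counts, and whether the same-strand overlap named above lowered those of Rps10 was not tested.

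In the plot of levels by library most rows were shaded alike within a library. The first principal component of the genes' log2 CPM held 60.7% of the variance. Its highest scores were 4.68 in vehicle replicate 6 and 3.91 in vehicle replicate 2, while the other libraries lay between -3.41 and 0.98. The median gene of vehicle replicates 6 and 2 stood 0.63 and 0.58 above the healthy mean on the log2 scale. The other vehicle libraries lay between -0.00 and 0.24 and the zalfermin libraries between -0.05 and 0.28, and the healthy libraries themselves spread between -0.24 and 0.23.

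**Figure D2:**
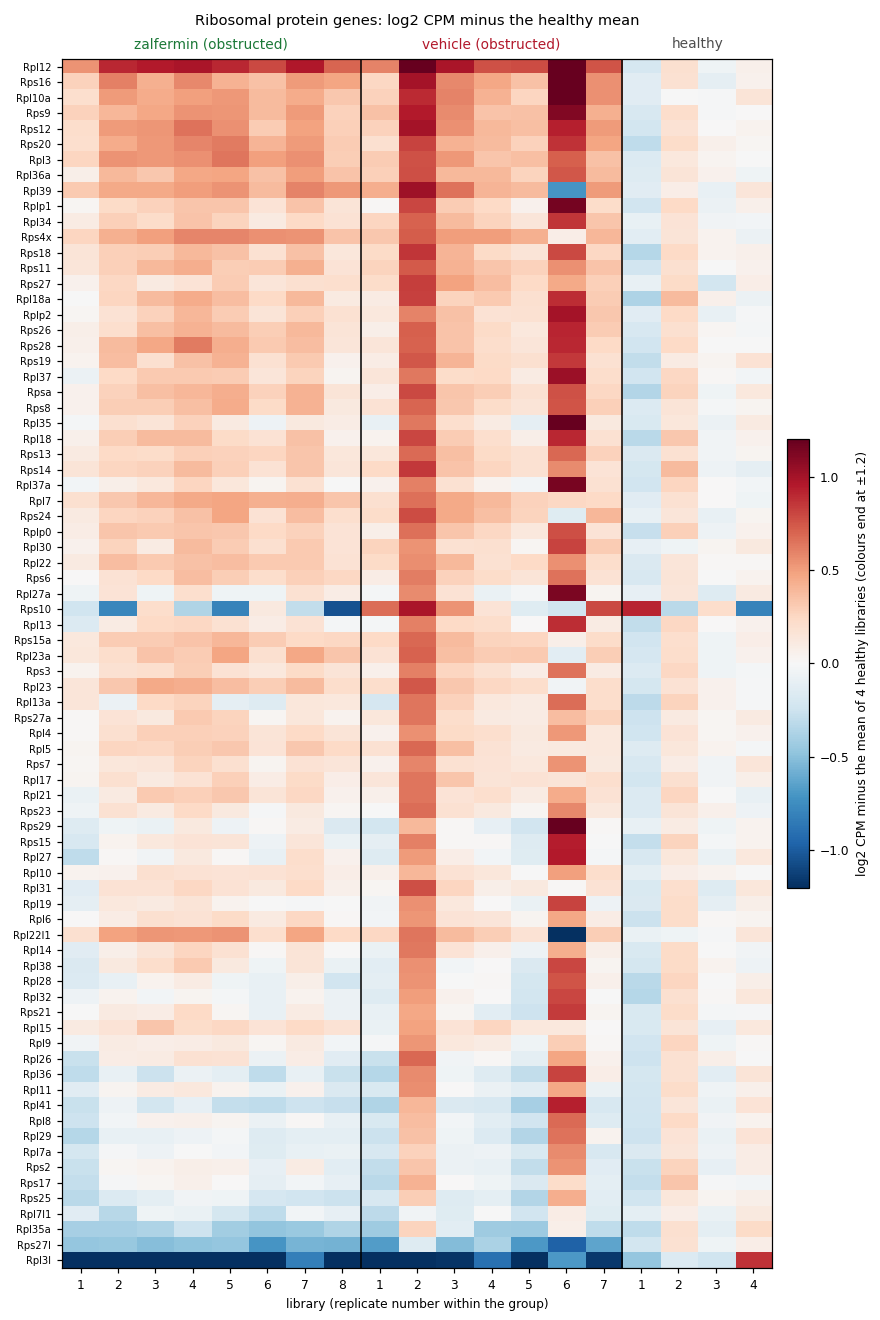
Log2 CPM of 78 of the 79 genes minus each gene's mean in the 4 healthy libraries, by library, with genes sorted by their fold change with obstruction. Colours end at ±1.2; vehicle replicates 2 and 6 are the darkest red columns, and Rpl12 and Rpl3l are the outermost rows.

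The first comparison asked how the genes differed between obstructed kidneys given vehicle and healthy kidneys. Of the 79 genes, 44 were higher and 2 were lower in vehicle than in healthy kidneys, and 33 were not called (edgeR's quasi-likelihood test, Benjamini-Hochberg adjusted p below 0.05 over 16026 genes). Over all tested genes 36.2% were called higher and 28.6% lower, 64.8% in all. The median log2 fold change of the 79 genes was 0.30 with an SD of 0.27, against 0.09 for all tested genes. The fold was positive for 73 genes and ranged from -1.30 to 0.94. The CPM ranges of the groups did not overlap for 11 higher genes and 1 lower gene, where 24.7% and 19.5% of all tested genes showed no overlap. Of the small subunit 22 of 31 genes were higher, with a median of 0.37, and of the large subunit 22 of 48 genes, with a median of 0.26.

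The count of higher genes depended on the libraries and on scaling. It was 22 without healthy replicate 1 and 31 without either vehicle replicate 2 or vehicle replicate 6. With library totals alone, an alternative chosen after the data had been seen, 75 genes were higher and the median was 0.72. The median of all tested genes was then 0.51, and 9373 of the 16026 were higher, against 5799 under TMM. With RLE scaling 24 genes were higher, where 5264 of the 16026 tested genes were. The count of lower genes was 4 without vehicle replicate 6. Measured from the median of all genes, the median of the 79 genes was 0.21 under TMM and 0.21 with library totals, and it ranged from 0.11 to 0.35 over the settings run.

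The largest rise was that of Rpl12, a large-subunit protein at the base of the stalk. Rpl12 reached 241 CPM in the lowest, 274 CPM in the median and 395 CPM in the highest vehicle library, against 138, 182, 154 and 167 CPM in the healthy libraries. Every vehicle library lay above every healthy one. The log2 fold change was 0.94 ± 0.13 (SE; edgeR adjusted p = 1.81e-06). Relative to the median ribosomal protein gene of the same library, Rpl12 stood 0.80 ± 0.092 higher in vehicle kidneys and 0.13 ± 0.039 higher in healthy kidneys on the log2 scale.

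Rps16, which sits in the head of the small subunit, had 106, 130 and 219 CPM in the lowest, median and highest vehicle library, against 81.1, 101, 82.9 and 92.3 CPM in healthy kidneys. Rpl10a, a protein of the mobile stalk beside the exit site for tRNA, had 89.8, 110 and 181 CPM in vehicle, against 68.4, 75.03, 74.4 and 83.9 CPM in healthy kidneys. For both genes the groups did not overlap, and vehicle replicate 6 gave the highest value. The log2 fold changes were 0.68 ± 0.15 for Rps16 and 0.64 ± 0.15 for Rpl10a (SE; edgeR adjusted p = 0.000453 and 0.000514).

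Rps9 and Rps12, both of the small subunit, had log2 fold changes of 0.61 and 0.59 (edgeR adjusted p = 0.000451 and 0.000423), and neither overlapped between the groups. The calls of Rpl12, Rps16, Rpl10a, Rps9 and Rps12 held in each of the 31 alternative settings.

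By role, the genes of the stalk were higher in vehicle kidneys. Rplp0, the scaffold of the stalk, rose by 0.35 ± 0.13, and Rplp1 and Rplp2, its acidic arms, rose by 0.44 ± 0.17 and 0.42 ± 0.13 on the log2 scale (SE; edgeR adjusted p = 0.0208, 0.0262 and 0.00979). Their groups overlapped, with Rplp1 between 427 and 942 CPM in vehicle and between 362 and 500 CPM in healthy kidneys.

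Around the mRNA channel and the signalling surface of the small subunit, Rps3, Rps6 and Rpsa were higher as well. Rps6, the substrate of the kinase S6K downstream of mTOR, had 124, 136 and 183 CPM in the lowest, median and highest vehicle library, against 102, 130, 117 and 120 CPM in healthy kidneys, and its log2 fold change was 0.32 ± 0.11 (SE; edgeR adjusted p = 0.0120). Rpsa, also known as the laminin receptor, and Rps3, which lines the mRNA entry, had log2 fold changes of 0.39 and 0.29 (edgeR adjusted p = 0.0153 and 0.0322). All of these groups overlapped. Rps27a, which is made as a fusion with ubiquitin, had a log2 fold change of 0.27 (edgeR adjusted p = 0.0280).

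In the large subunit, Rpl4 reaches into the exit tunnel and Rpl10 completes the subunit late in its maturation. They rose by 0.26 and 0.22 on the log2 scale (edgeR adjusted p = 0.0325 and 0.0353). Rpl5 and Rpl11 enter the large subunit together and, when unassembled, bind and inhibit Mdm2. Rpl5 had 272, 285 and 407 CPM in the lowest, median and highest vehicle library, against 227, 277, 260 and 248 CPM in healthy kidneys, a log2 fold change of 0.26 ± 0.10 (SE; edgeR adjusted p = 0.0307). Rpl11 had 182, 197 and 305 CPM in vehicle, against 177, 240, 199 and 216 CPM in healthy kidneys, and its log2 fold change of 0.10 ± 0.13 was not called and changed sign without vehicle replicate 6 (-0.02). Rpl38, which in mouse embryos is needed for translation of Hox mRNAs, was at 61.2 ± 17.4 CPM in vehicle and 53.7 ± 6.96 CPM in healthy kidneys (SD, n = 7 and 4) and was not called (edgeR adjusted p = 0.301). With library totals alone Rpl11 and Rpl38 were called higher, at 0.53 and 0.61, where the median of all tested genes was 0.51.

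Several of these calls rested on single libraries or on the processing. Without healthy replicate 1, edgeR called none of Rplp0, Rplp1, Rpsa, Rps27a, Rps6, Rps3, Rpl4, Rpl5 and Rpl10. Without vehicle replicate 6 it called Rpl5 but none of the others, and without vehicle replicate 2 it called Rplp0, Rpsa and Rps6 but not Rplp1, Rps27a, Rps3, Rpl4, Rpl5 and Rpl10. Rplp0, Rplp1, Rps3, Rpl4 and Rpl10 also lost their call without healthy replicate 3, Rps3, Rpl5 and Rpl10 without healthy replicate 4, and Rpl5 without vehicle replicate 3. Each kept a positive fold in these fits, with edgeR adjusted p between 0.0513 and 0.170 where the call was lost; without vehicle replicate 6 the 8 uncalled genes stood at 0.11 to 0.27 on the log2 scale. Rplp2 was called in each of the 31 alternative settings, at 0.24 without vehicle replicate 6.

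With RLE scaling none of these 9 genes was called. DESeq2 and the fit of the 2 groups alone called Rpsa and Rps6 but not the other 7. The full GC and length correction removes trends with GC content and the gene's merged exon length between and within groups. Under it the median of all tested genes was -0.16. Under that correction Rps3 stood at 0.060, Rps6 at 0.074, Rpl5 at 0.13 and Rpsa at 0.19 (edgeR adjusted p = 0.667, 0.312, 0.374 and 0.180), and Rpl10 and Rpl4 at 0.18 and 0.20 were not called either, whereas Rplp0, Rplp1 and Rps27a were. Rpl5, Rpl10 and Rpl4 also lost their call without the filter on low counts, Rpl10 and Rpl4 with voom, and Rpl5 and Rpl10 with the correction within groups. Rplp1 and Rps3 were called with voom at 0.23 and 0.18, and Rplp2 at 0.21 with the full correction.

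**Figure D3:**
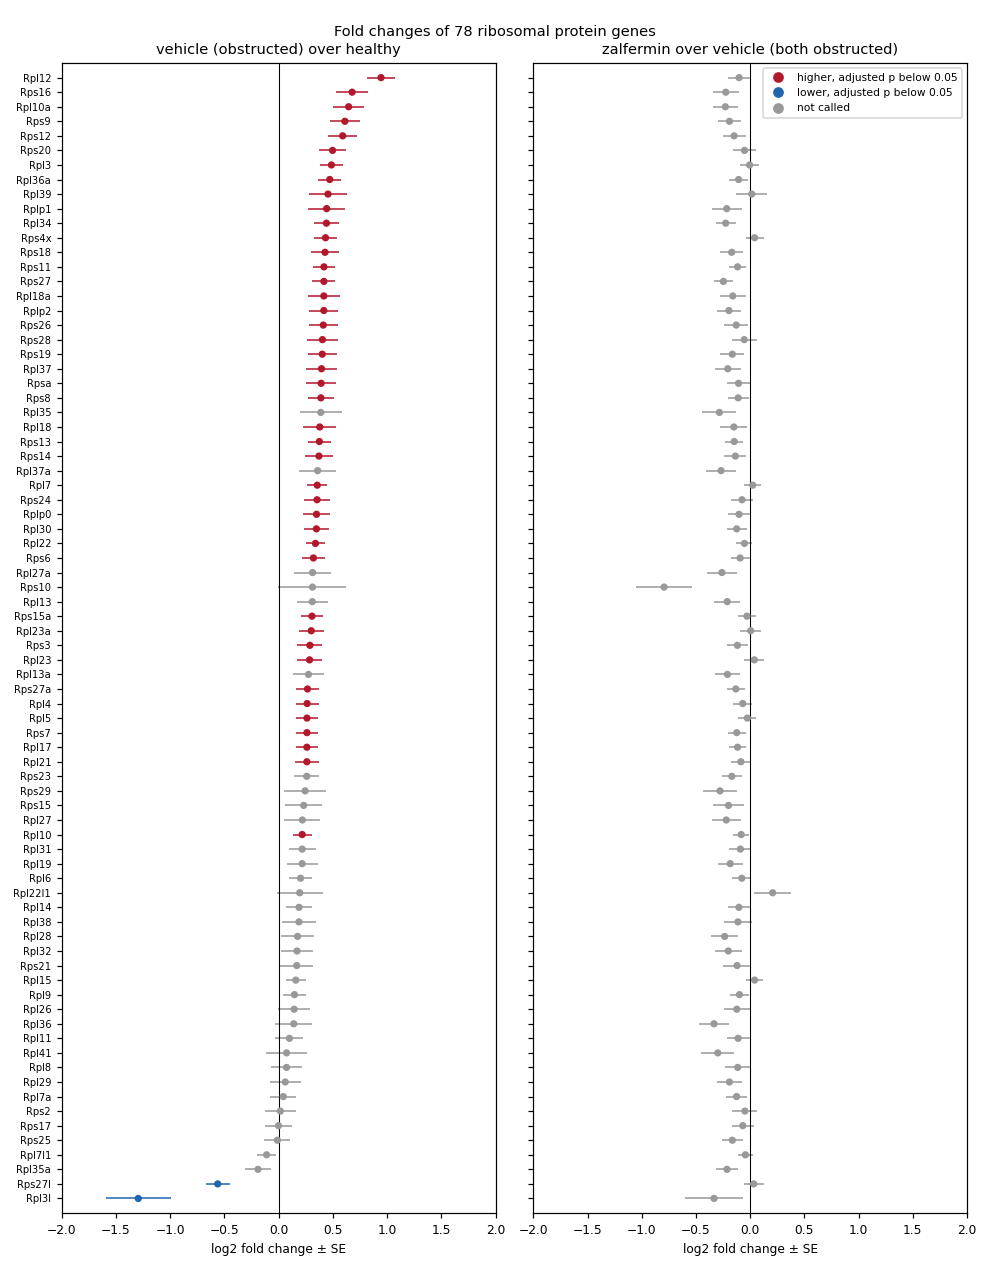
Log2 fold change ± SE of 78 of the 79 genes, for vehicle over healthy kidneys (left) and zalfermin over vehicle kidneys (right), in the order of the left panel. Colour marks genes called by edgeR at an adjusted p below 0.05, which were 43 higher and 2 lower of those drawn on the left and 0 on the right.

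Both genes that fell were paralogues. Rps27l, the paralogue of the zinc-finger protein gene Rps27 and a known target of p53, had 66.3, 84.2 and 117 CPM in the lowest, median and highest vehicle library, against 112, 148, 126 and 138 CPM in healthy kidneys. Vehicle replicate 2 alone reached into the healthy range. The log2 fold change was -0.56 ± 0.11 (SE; edgeR adjusted p = 0.000118), and Rps27l was not called with library totals alone (-0.14, adjusted p = 0.243) and stood at -0.37 with the full GC and length correction. Rpl3l had 0.653, 1.15 and 1.61 CPM in vehicle, against 1.87, 2.31, 2.19 and 4.71 CPM in healthy kidneys, a log2 fold change of -1.30 ± 0.30 (SE; edgeR adjusted p = 0.000657). The groups did not overlap, but the gene rested on 118 counts in the 7 vehicle libraries and 121 in the 4 healthy libraries. Rpl35a was the lowest of the genes without a call, at -0.19.

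Each paralogue was next set against its main copy as a log2 ratio of counts within a library, with 1 added to each count. This ratio does not depend on library scaling, but it was not corrected for GC content or length. Over 4 pairs and 3 comparisons, 12 differences were tested two-sided by exact permutation of the libraries, with Benjamini-Hochberg adjustment over the 12. Rpl39l and Rpl10l, which have main copies too, held too few counts for a ratio.

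Rps27l made up 32.8% ± 1.62 of the counts of Rps27l and Rps27 together in zalfermin, 28.7% ± 2.89 in vehicle and 44.3% ± 2.11 in healthy kidneys (SD, n = 8, 7 and 4). In vehicle libraries the log2 ratio ranged from -1.77 to -1.08, and the healthy libraries had -0.46, -0.38, -0.17 and -0.33. The groups did not overlap, and the difference was -0.99 (exact permutation p = 0.00606, the smallest that 7 against 4 libraries allow; adjusted p = 0.0104). As levels, Rps27 was higher in vehicle kidneys, with a log2 fold change of 0.42 (edgeR adjusted p = 0.00164), and Rps27l was lower.

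This ratio was also the one that differed between the zalfermin-treated and vehicle-treated obstructed kidneys. It averaged -1.04 ± 0.11 in zalfermin and -1.32 ± 0.21 in vehicle libraries (SD, n = 8 and 7), a difference of 0.28 (exact permutation p = 0.00124, adjusted p = 0.0104). The zalfermin libraries ranged from -1.18 to -0.85 and overlapped with the highest vehicle library, at -1.08. As levels for zalfermin over vehicle, Rps27 stood at -0.25 and Rps27l at 0.03 on the log2 scale, and edgeR called neither. Against healthy kidneys the zalfermin ratio was still lower, by -0.70 (exact permutation p = 0.00404, the smallest possible; adjusted p = 0.0104).

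The ratio of Rpl3l to Rpl3 averaged -8.38 ± 0.47 in vehicle and -6.67 ± 0.56 in healthy kidneys, a difference of -1.70 with no overlap (exact permutation p = 0.00606, adjusted p = 0.0104). Zalfermin kidneys averaged -8.71 ± 0.53, which differed from vehicle by -0.33 (exact permutation p = 0.239, adjusted p = 0.286, or 0.0490 without vehicle replicate 2) and from healthy kidneys by -2.03 (exact permutation p = 0.00404, adjusted p = 0.0104). Rpl3, which lies beside the peptidyl transferase centre, was itself higher with obstruction, at 337, 352 and 464 CPM in the lowest, median and highest vehicle library, against 244, 299, 280 and 273 CPM in healthy kidneys. Its groups did not overlap (log2 fold change 0.49, edgeR adjusted p = 0.000302; 0.26 with the full GC and length correction).

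The ratio of Rpl7l1 to Rpl7, whose paralogue also works in ribosome assembly, was lower by -0.47 in vehicle than in healthy kidneys and by -0.54 in zalfermin than in healthy kidneys (exact permutation p = 0.00606 and 0.00404, adjusted p = 0.0104 for both). Rpl7 rose with obstruction, by 0.36 on the log2 scale (edgeR adjusted p = 0.00218), while Rpl7l1 was at 89.2 ± 8.59 CPM in vehicle and 96.4 ± 7.81 CPM in healthy kidneys and was not called (edgeR adjusted p = 0.259). Rpl7l1 was called lower with RLE scaling and with DESeq2, at -0.19 in both (adjusted p = 0.0457 and 0.0374), with the full GC and length correction at -0.32 (0.00136) and without vehicle replicate 6 at -0.20 (0.0210), and higher with library totals alone at 0.32 (0.00104). Zalfermin and vehicle differed by -0.07 in this ratio (exact permutation p = 0.407). For Rpl22l1 over Rpl22, a pair whose proteins both bind RNA outside the ribosome, no comparison passed. The difference was -0.24 between vehicle and healthy kidneys (exact permutation p = 0.891) and 0.35 between zalfermin and vehicle kidneys (exact permutation p = 0.0848, adjusted p = 0.127, or 0.00962 without zalfermin replicate 6). Vehicle replicate 6, at -4.18, lay far below the other vehicle libraries at -2.30 to -2.13. Without that library the difference between zalfermin and vehicle kidneys was 0.068 (adjusted p = 0.253, exact permutation) and that between vehicle and healthy kidneys 0.038. As a level, Rpl22l1 was not called between vehicle and healthy kidneys with all libraries (log2 fold change 0.19, edgeR adjusted p = 0.431). It was called higher without vehicle replicate 6 at 0.30 (edgeR adjusted p = 0.00957), with voom at 0.30 (voom adjusted p = 0.0223) and with library totals alone at 0.62 (edgeR adjusted p = 0.0121).

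**Figure D4:**
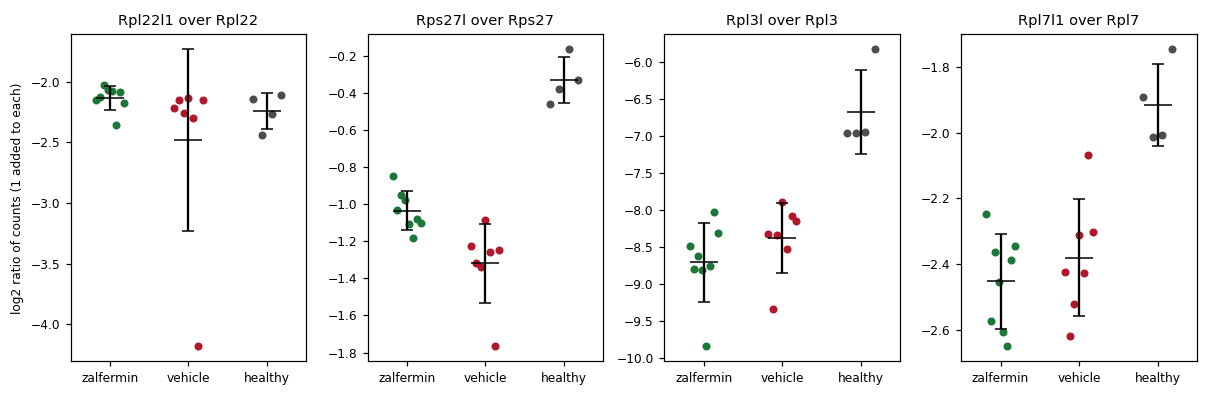
Log2 ratio of each paralogue to its main copy, with 1 added to each count, by library in zalfermin (n = 8), vehicle (n = 7) and healthy (n = 4) kidneys; bars are mean ± SD and the axes differ between panels. Rps27l over Rps27, Rpl3l over Rpl3 and Rpl7l1 over Rpl7 lie highest in healthy kidneys.

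Promoters of the 3 genes with the highest fold, of 3 genes of the fixed set with long pyrimidine runs and of both genes that fell were laid side by side. As the 3 of the fixed set were shown for their long runs, the sequences are examples and compare no groups of genes. RefSeq (GRCm38.p6) held promoter entries for 59 of the 79 genes, with 71 starts in all. Each sequence below covers 30 bases on each side of the annotated start, 5′ to 3′ on the gene's strand, and capitals mark the longest unbroken run of C and T within 20 bases of the start. Where a gene had several starts, the first is shown.
Rpl12 (chr2:32961682-32961741, plus strand): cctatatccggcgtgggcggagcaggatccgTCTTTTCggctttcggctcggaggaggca
Rps16 (chr7:28350659-28350718, plus strand): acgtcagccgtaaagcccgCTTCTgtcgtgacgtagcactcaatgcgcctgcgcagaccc
Rpl10a (chr17:28328441-28328500, plus strand): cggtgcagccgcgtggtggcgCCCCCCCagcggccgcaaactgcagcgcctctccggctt
Rps6 (chr4:86857338-86857397, minus strand): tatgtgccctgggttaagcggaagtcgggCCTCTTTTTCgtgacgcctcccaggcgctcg
Rplp2 (chr7:141447621-141447680, plus strand): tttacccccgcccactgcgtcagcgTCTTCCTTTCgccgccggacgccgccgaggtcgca
Rpl38 (chr11:114668550-114668609, plus strand): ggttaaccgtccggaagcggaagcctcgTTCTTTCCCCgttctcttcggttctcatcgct
Rps27l (chr9:66946056-66946115, plus strand): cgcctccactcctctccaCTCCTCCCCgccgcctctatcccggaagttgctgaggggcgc
Rpl3l (chr17:24727796-24727855, plus strand): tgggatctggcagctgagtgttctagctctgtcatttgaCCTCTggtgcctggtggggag
Rps6, Rplp2 and Rpl38 carried a run of 10 pyrimidines across the start, and Rpl12 a run of 7 just after it. Rps27l, which fell, had a run of 9 and Rpl10a a run of 7, both ending before the annotated start. The 5-base runs of Rps16 and Rpl3l were the shortest shown, and Rps16 was among the genes that rose most while Rpl3l was the gene that fell most.

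Over the 71 starts, 54.9% had a run of at least 7 pyrimidines in that window, against 24.3% of 32851 mouse promoters of the same length. Runs that ended before the annotated start were counted too. The letters CCGGAAG, searched on both strands from 250 bases before to 50 bases after the start, were present in 35.2% of these promoters and in 8.86% of all promoters. GGGCGG was present in 60.6% against 35.7%, and the E-box letters CACGTG in 11.3% against 7.15%. CCAAT was less frequent, in 29.6% against 37.4%, and TATAAA, searched on the gene's strand, was found in 8.45% against 8.32%. These shares describe letters in a window and say nothing of binding.

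The second comparison asked whether zalfermin changed the genes in obstructed kidneys. None of the 79 genes was called between zalfermin and vehicle by edgeR, where 0.867% of all tested genes were called higher and 0.942% lower, 1.81% in all. An unadjusted p below 0.05 was found for 5 of the 79 genes, where 15.5% of all tested genes had one. DESeq2 called 0, and voom with quality weights called 1, Rps10, which was also called when pseudogene rows were added (adjusted p = 0.0256 and 0.0447). With the GC and length correction within groups, edgeR called 3 genes lower: Rps27, Rpl34 and Rpl36. Of all 16021 genes tested under that correction, 1001 were higher and 394 lower. Of all 16026 tested genes, voom called 502 higher and 646 lower, and DESeq2 260 higher and 342 lower. The groups overlapped for each of the 79 genes, and over all tested genes 0.349% were higher and 0.256% lower without overlap. The median log2 fold change of the 79 genes was -0.12, against 0.01 for all tested genes, and the fold was negative for 71 genes. It was -0.06 without vehicle replicate 2, -0.07 without vehicle replicate 6 and 0.01 with voom, which gives less weight to libraries that vary more.

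The genes with the smallest p were Rps10, Rps27, Rpl34, Rpl36 and Rpl35a, each lower in zalfermin on average. Rps27 had 170, 186 and 203 CPM in the lowest, median and highest zalfermin library, against 192, 212 and 293 CPM in vehicle. The ranges overlapped, and the log2 fold change was -0.25 ± 0.087 (SE; edgeR adjusted p = 0.159). Rps10 had 0.913, 1.50 and 2.19 CPM in zalfermin, against 1.61, 2.74 and 3.72 CPM in vehicle, with 171 and 275 counts in all. Its log2 fold change was -0.79 ± 0.26 (SE; edgeR adjusted p = 0.123).

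Rpl34 and Rpl36 had log2 fold changes of -0.23 and -0.33 (edgeR adjusted p = 0.232 and 0.246), and Rpl35a -0.21 (0.321). With the correction within groups Rps27, Rpl34 and Rpl36 were called at -0.24, -0.21 and -0.29 (edgeR adjusted p = 0.0339, 0.0281 and 0.0213). The stalk genes Rplp0, Rplp1 and Rplp2 stood at -0.10, -0.22 and -0.20, Rps6 at -0.09, Rpl5 at -0.03 and Rpl11 at -0.11, each without a call. Rpl12, the gene that differed most between vehicle and healthy kidneys, had 233, 298 and 316 CPM in the lowest, median and highest zalfermin library, against 241, 274 and 395 CPM in vehicle. Those ranges overlapped over most of their length.

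The third comparison set zalfermin-treated obstructed kidneys against healthy kidneys; it shares the healthy libraries with the first and the zalfermin libraries with the second. Of the 79 genes 21 were higher and 3 lower, where 37.3% of all tested genes were higher and 27.0% lower, 64.3% in all. The median log2 fold change was 0.17, against 0.13 for all tested genes. The groups did not overlap for 10 higher genes and 2 lower genes, where 29.4% and 21.7% of all tested genes showed no overlap. The count of higher genes was 11 without healthy replicate 1 and 13 without healthy replicate 3, and the median without healthy replicate 1 was 0.12 against 0.14 for all genes. The median was 0.079 with RLE scaling and with DESeq2, against 0.033 for all genes in both, and 0.078 with the full GC and length correction, against -0.14 for all genes. The count of lower genes was 6 without vehicle replicate 6.

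Rpl12 again had the highest fold, 0.84 ± 0.13 on the log2 scale (SE; edgeR adjusted p = 6.50e-06), with every zalfermin library above the healthy ones. Rpl3 followed at 0.48, Rps4x, the X-linked gene of a small-subunit protein, at 0.47, and Rpl39, a small protein of the exit tunnel, at 0.47 (edgeR adjusted p = 0.000284, 0.000278 and 0.0236). Rpl39 was not called without healthy replicate 1 or 3 (edgeR adjusted p = 0.0676 and 0.0625), with RLE scaling (0.0723) or with DESeq2 (0.0623), and Rpl3 stood at 0.30 with the full GC and length correction. Rps4x had 291, 347 and 365 CPM in the lowest, median and highest zalfermin library, against 222, 271, 250 and 232 CPM in healthy kidneys. Rps16 and Rps20 had log2 fold changes of 0.45 and 0.44 (edgeR adjusted p = 0.0101 and 0.00340), and Rps20 overlapped between the groups. Rps20 was not called with the full GC and length correction, at 0.21, or with that within groups, at 0.44 (edgeR adjusted p = 0.407 and 0.0785).

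Rpl3l, Rps27l and Rpl35a were lower in zalfermin than in healthy kidneys. Rpl35a, which carries mutations in some patients with Diamond-Blackfan anaemia, had 55.9, 59.03 and 65.7 CPM in the lowest, median and highest zalfermin library, against 62.9, 89.2, 72.0 and 91.1 CPM in healthy kidneys. The groups overlapped only at their edges, and the log2 fold change was -0.40 ± 0.12 (SE; edgeR adjusted p = 0.00544), or -0.62 with the full GC and length correction. Rps27l stood at -0.53 and Rpl3l at -1.63 (edgeR adjusted p = 0.000176 and 5.01e-05), both with no overlap. Rps27l and Rpl35a were not called with library totals alone (adjusted p = 0.230 and 0.960). Of the stalk proteins and Rps6 none was called against healthy kidneys, with log2 fold changes of 0.25 for Rplp0, 0.23 for Rplp1, 0.22 for Rplp2 and 0.23 for Rps6.

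Other genes of protein synthesis were read in the same fit, to be set against the 36.2% of all tested genes called higher and the 28.6% called lower in vehicle kidneys, and against the median of all tested genes of 0.09, which was 0.51 with library totals alone and -0.16 with the full GC and length correction. In the mitochondrial ribosome, whose proteins are also encoded in the nucleus, 1 of 77 genes was higher and 70 were lower in vehicle than in healthy kidneys, with a median log2 fold change of -0.61. Mrps35 fell by 1.02 and Mrps31 by 0.94 on the log2 scale, while Mrpl33 rose by 0.51 (edgeR adjusted p = 5.98e-10, 7.31e-09 and 0.000176). With library totals alone 7 were higher and 28 lower, with a median of -0.18. Of all 16026 tested genes, 9373 were then higher and 2344 lower. Their summed share was 0.289% ± 0.0128 in zalfermin, 0.300% ± 0.0385 in vehicle and 0.346% ± 0.0298 in healthy kidneys, so the vehicle and healthy libraries overlapped in the plot of summed shares.

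Among 20 other TOP mRNAs and elongation genes, 8 were higher, a share near the 36.2% of all tested genes, and 0 lower in vehicle kidneys, with a median of 0.18. With the full correction 6 were higher and 6 lower, with a median of 0.0048. Of all 16021 genes tested under that correction, 4386 were higher and 6972 lower. Hnrnpa1, an RNA-binding protein, and Pabpc1, the poly(A)-binding protein, rose by 1.17 and 0.67 on the log2 scale (edgeR adjusted p = 1.85e-10 and 3.73e-07). Of 36 ribosome biogenesis genes 15 were higher, again near the 36.2% of all tested genes, and 2 lower, with a median of 0.23. Gar1 and Nop56, both of the snoRNA-protein particles that modify ribosomal RNA, rose by 0.99 and 0.67 (edgeR adjusted p = 1.86e-06 and 2.69e-05), and Nop10, a partner of Gar1, fell by 0.56 (edgeR adjusted p = 7.93e-05). With the full correction 4 of this list were higher and 7 lower, with a median of -0.03. With the correction within groups 16 were higher and 4 lower, with a median of 0.23, where 6140 of all 16021 genes were higher and 4998 lower.

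Of 28 translation initiation genes 4 were higher and 9 lower, where 36.2% and 28.6% of all tested genes were so called. The median of the list was -0.11 against 0.09 for all tested genes, and 0.31 against 0.51 with library totals alone. With the full correction 2 were higher and 18 lower, where 4386 of all 16021 genes were higher and 6972 lower. Eif6, which keeps the large subunit from joining too early, rose by 1.11 on the log2 scale (edgeR adjusted p = 5.09e-07), and Eif4a1, the RNA helicase of the cap complex, by 0.53 (edgeR adjusted p = 1.54e-05). Of 20 regulators of ribosome supply 8 were higher and 6 lower, both near the shares of all tested genes, with a median of -0.03. The median was 0.39 with library totals alone, and with the full correction 6 were higher and 11 lower, with a median of -0.40. Cdkn1a, a cell-cycle inhibitor and target of p53, and Myc, a driver of ribosome production, rose by 2.40 and 2.21 on the log2 scale, and Mtor fell by 1.16 (edgeR adjusted p = 6.69e-11, 1.59e-09 and 5.44e-07). Rps27l, another target of p53, had a log2 fold change of -0.56 in the same comparison, with groups that overlapped. The activity of p53 was not tested.

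Of 6 ribosomal protein genes or paralogues that the symbol rule left out, 3 were higher in vehicle kidneys: Rps3a1, Rack1, a scaffold on the small subunit, and Rps4l, at 0.36, 0.45 and 0.51 on the log2 scale (edgeR adjusted p = 0.00215, 0.00323 and 0.00534). Between zalfermin and vehicle, edgeR called 0 of the genes in these lists of protein synthesis, with 7 at an unadjusted p below 0.05, where 15.5% of all tested genes had one; DESeq2 and voom each called 1, a higher gene among the TOP and elongation genes. With the GC and length correction within groups, edgeR called 2 initiation genes, 2 regulators and 1 mitochondrial ribosomal gene higher. Of all 16021 genes tested under that correction, 1001 were higher and 394 lower. By contrast, 3 of the 6 fibroblast markers were lower, among them Col1a2 at -0.73 and Col1a1 at -0.86 (edgeR adjusted p = 0.00122 and 0.00301).

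**Figure D5:**
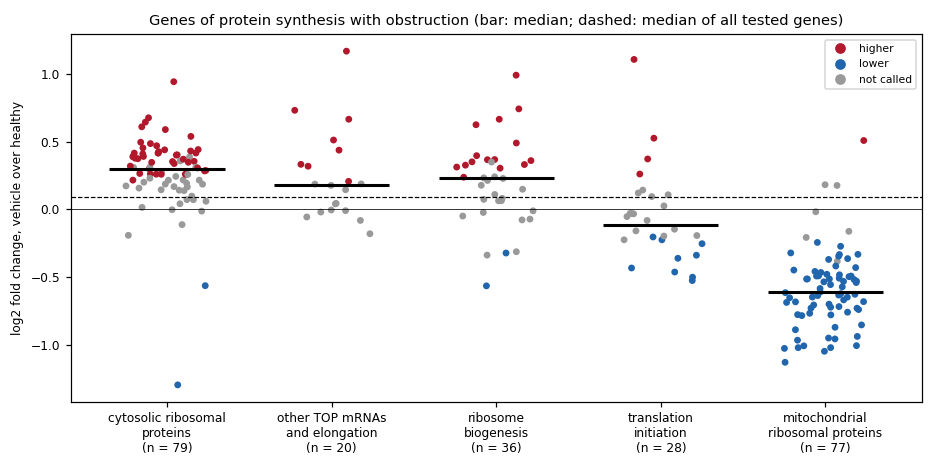
Log2 fold change of vehicle over healthy kidneys for genes of 5 groups; each point is a gene, coloured by its edgeR call, the bar is the group's median and the dashed line the median of all tested genes. The median was 0.30 for the 79 cytosolic and -0.61 for the 77 mitochondrial ribosomal protein genes.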

How the data were processed

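RNA of 19 kidneys was sequenced. Per the labels' protocols, RNA was extracted with a NucleoSpin kit, the NEBNext Ultra II Directional kit served for the libraries, and a NextSeq 500/550 kit for sequencing; per the submitters' processing notes, reads were aligned with STAR 2.7.0f to GRCm38. The values deposited by the authors are raw read counts per gene. No source used here names the counter, strand setting or annotation; the gene identifiers are all in GENCODE M21, and 14 of the genes had antisense overlap of at least 5% of exon length, whose reads cannot be told apart without strand. Pseudogene copies (298 rows) may share reads. Replicates were numbered in accession order within groups taken from the labels. The closest pair of libraries of a group differed beyond counting noise (chi-square per degree of freedom 5.89).

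Genes were filtered with filterByExpr (minimum count 10, minimum total 15), scaled by TMM and fitted in 1 quasi-likelihood model over the 19 libraries (edgeR 4.0.16, R 4.3.3), with Benjamini-Hochberg adjustment over 16026 genes; 39510 were not tested. The level per kilobase used raw library totals and the longest principal transcript of each gene. Paralogue ratios were compared by exact permutation tests (scipy 1.17.1). Alternatives were DESeq2 1.42.0, limma 3.58.1 (voom with quality weights), scaling by RLE or upper quartile, other filters, 2-group fits, a robust fit, pseudogene rows added, GC and length corrections (full, on each library's deviation from the mean of all libraries, or within groups, from its group's mean), and each library left out; library totals alone were added later. The fit was also run on simulated counts in which few genes were changed and all genes had the same spread. That run cannot show how the fit does where most genes differ, as between obstructed and healthy kidneys. The genes and lists were chosen with earlier results of these data known. Named genes were the 6 highest and 6 lowest called genes per comparison, the 5 smallest p with zalfermin, a fixed set by role, each paralogue pair, and per list the 2 smallest p and the called gene against the majority. A gene taken by this rule is not reported here. Others named were chosen after their values were seen. Protein identity of the paralogues was not computed.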

Additional observations from a re-analysis of the deposited data

Results flagged for a closer look

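Each group's values of the named genes and ratios were searched for a library standing apart from the rest by Dixon's criterion, which flags about 1 in 20 groups by chance. Of 117 groups of values, 10 contained such a library.

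In vehicle kidneys, replicate 6 stood apart in 3 measures. Its Rpl22l1 level was 12.1 CPM, against 36.2 to 50.1 CPM in the other vehicle libraries. Its log2 ratio of Rpl22l1 to Rpl22 was -4.18, against -2.30 to -2.13, and that of Rps27l to Rps27 was -1.77, against -1.34 to -1.08. Vehicle replicate 2 had the highest Rpl5 and Rps27 levels, 407 CPM against 272 to 324 CPM and 293 CPM against 192 to 230 CPM in the other vehicle libraries.

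In zalfermin kidneys, Rpl35a reached 65.7 CPM in replicate 4, against 55.9 to 60.5 CPM in the others. The log2 ratio of Rpl22l1 to Rpl22 was -2.35 in replicate 6, against -2.17 to -2.03, and that of Rpl3l to Rpl3 was -9.84 in replicate 5, against -8.81 to -8.02. In healthy kidneys, replicate 4 had the highest Rpl3l level, 4.71 CPM against 1.87 to 2.31 CPM, and a log2 ratio of Rpl3l to Rpl3 of -5.83, against -6.97 to -6.94.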

How the results depend on the processing

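No paired analysis was possible because the labels number no replicates; the numbers used are accession order. Of the 79 genes, 44 were higher with obstruction; the count was 24 with RLE scaling, 28 with DESeq2, 28 in a fit of the 2 groups alone, 28 after correction for GC content and length between groups and 75 with library totals alone, and 22 to 49 with 1 library left out. Of all 16026 tested genes 5799 were higher, with 5264 under RLE, 5352 under DESeq2 and 5352 in the 2-group fit. With the correction between groups 4386 of 16021 were higher, and with library totals alone 9373 of 16026. The 2 lower genes became 1 with library totals and 2 to 4 with 1 library left out; the median of 0.30 became 0.22 with RLE, 0.22 with DESeq2, 0.21 with voom, 0.18 with the full GC correction (all tested genes -0.16), 0.72 with library totals (all tested genes 0.51) and 0.20 to 0.36 with 1 library left out. For zalfermin over vehicle the 0 lower genes became 1 with voom, 1 with pseudogene rows added and 3 with the within-group GC and length correction, and stayed 0 in either direction with 1 library left out (median -0.16 to -0.06). Of all 16026 tested genes 151 were lower, and 646 with voom. With pseudogene rows added 153 of 16006 were lower, and with the within-group correction 394 of 16021. Against healthy kidneys the 21 genes higher with zalfermin became 10 with RLE, 11 with DESeq2, 43 with voom, 70 with library totals and 11 to 30 with 1 library left out. Of all 16026 tested genes 5976 were higher there, with 5260 under RLE, 5345 under DESeq2, 6466 under voom and 9451 with library totals. The 3 lower genes became 5 with RLE, 5 with DESeq2, 8 with 2 groups, 7 with the GC correction, 1 with library totals and 3 to 6 with 1 library left out; the median of 0.17 became 0.079 with RLE, 0.079 with DESeq2, 0.078 with the full GC correction, 0.57 with library totals (all tested genes 0.51) and 0.11 to 0.25 with 1 library left out. Of all 16026 tested genes 4322 were lower, with 4968 under RLE, 5013 under DESeq2, 5177 with 2 groups and 2351 with library totals. With the full GC correction 6723 of 16021 were lower. The cause was not tested.

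With 1 library left out, the ratio differences for vehicle over healthy ranged from -1.03 to -0.91 (Rps27l), -1.80 to -1.42 (Rpl3l), -0.52 to -0.41 (Rpl7l1) and -0.31 to 0.038 (Rpl22l1, reversed without vehicle replicate 6). For zalfermin over vehicle they ranged from 0.21 to 0.32, -0.49 to -0.17 (adjusted p = 0.0490 without vehicle replicate 2), -0.11 to -0.02 and 0.068 (without vehicle replicate 6) to 0.41 (0.38, adjusted p = 0.00962, without zalfermin replicate 6), and for zalfermin over healthy from -0.74 to -0.65, -2.13 to -1.75, -0.57 to -0.48 and 0.04 to 0.15. The summed share ranged from 1.62% to 1.67% in zalfermin, 1.74% to 1.87% in vehicle and 1.05% to 1.13% in healthy kidneys, and the healthy share was 1.22% without mitochondrially encoded genes. Single genes reversed with obstruction were Rpl11 (-0.030 with voom, -0.11 with the GC correction and -0.022 without vehicle replicate 6, but 0.18 without healthy replicate 2), Rpl38 (-0.032 with voom) and Rpl7l1 (0.32 with library totals). With library totals alone Rpl11 and Rpl38 were called higher, at 0.53 and 0.61 (edgeR adjusted p = 0.000818 and 0.00133). Apart from the reversed values, 1167 values of named genes stayed on their side of the threshold, 85 lost and 14 gained a call. At 12209122 counts or more per library, Rpl3l and Rps10 had too few reads to show small changes.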
